A study of Caenorhabditis elegans with 18 samples.

Results

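The arginine kinase family of Caenorhabditis elegans was followed through 18 RNA-seq libraries made from intact hermaphrodites of N2, the wild-type strain. The family was taken as 5 genes listed by WormBase name, argk-1, F46H5.3, W10C8.5, ZC434.8 and F32B5.1, out of 46748 genes in the count table. The genes were picked by name and not by a measured value, but earlier results of these data were known when they were picked. Of the 5 genes, 4 passed the filter on low counts and were tested among 14735 genes. F32B5.1 did not pass.

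Worms were given 1 of 3 RNAi feeding plasmids and were collected at an age of 5 days or 1 day. M05B5.5 is hlh-2, the single E-type basic helix-loop-helix factor of the worm, T14F9.5 is lin-32, a helix-loop-helix factor of the atonal type in sensory neuron lineages, and L4440 is the empty feeding vector. The 6 groups were M05B5.5 day 5, T14F9.5 day 5, L4440 day 5, M05B5.5 day 1, T14F9.5 day 1 and L4440 day 1, with 3 libraries each. No mutant allele or transgene is named for any group. Separate cultures are not stated for the 3 libraries of a group, and the p-values therefore speak of the spread among these samples, which may be technical.

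Arginine kinases move a phosphate group between ATP and arginine. The phosphoarginine that they store can restore ATP quickly where demand swings, as creatine kinase and phosphocreatine do in vertebrate muscle and brain. In C. elegans argk-1 is known from glia and from the long-lived mutants of the S6 kinase gene rsks-1, in which it is raised. The single roles of the other 4 genes are less well known, and their family membership rests on sequence.

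The 5 genes lie apart on 3 chromosomes of the WBcel235 assembly and are all annotated as protein-coding. argk-1 (WBGene00009706) lies on the plus strand of chromosome V, from 16103894 to 16105952, and encodes 372 residues in 4 exons. F46H5.3 (WBGene00018519) lies on the minus strand of chromosome X, from 7230705 to 7238662, and has 2 coding transcripts, of 359 and 396 residues. The other 3 genes are on chromosome I. W10C8.5 (WBGene00021128) is on the minus strand from 2853970 to 2855732 and encodes 399 residues. ZC434.8 (WBGene00013894) is on the minus strand from 10348055 to 10349369 and encodes 360 residues. F32B5.1 (WBGene00017975) runs from 2700420 to 2702158 on the plus strand and encodes 427 residues.

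Reads of a neighbour could enter the count of some of these genes. ZC434.8 shares 11 exon bases with coa-6 on the opposite strand, and reads over those bases cannot be told apart because the strand setting is not given in the sources used here. F46H5.7 starts 3 bases from F46H5.3 on the same strand, and W10C8.4 lies 66 bases from W10C8.5 on the same strand. argk-1 is 1143 bases downstream of cth-1, a cystathionine gamma-lyase gene on the same strand.

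Several libraries stood apart from their group, and the values below are given with that in view. Libraries held 27024193 to 43016293 counts. Replicate 1 of each plasmid at day 5 lay closer to day 1 than to its own age: its root mean square log2 difference over all tested genes was 0.44 to 0.46 from the day-1 mean and 0.83 to 0.84 from the mean of the other day-5 libraries. The other 6 day-5 libraries lay 0.79 to 0.95 from day 1 and 0.30 to 0.46 from each other's mean. L4440 day-1 replicate 2 had 25.9% of its counts-per-million (CPM, scaled by TMM library factors) in ribosomal protein genes, against 5.88% to 12.1% elsewhere, and the slope of its log2 level on log2 gene length was -0.66, against -0.24 to 0.13 elsewhere. hlh-2 stood below every L4440 library of its age in every M05B5.5 library, at 12.1 ± 0.682 against 41.3 ± 15.7 CPM at day 1 and 21.5 ± 9.33 against 57.2 ± 3.02 CPM at day 5 (SD, n = 3 each). In the libraries labelled T14F9.5 no lower level of lin-32 was measured, at 2.19 ± 0.246 against 2.05 ± 0.456 CPM at day 1 and 3.75 ± 2.34 against 0.576 ± 0.360 CPM at day 5.

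F46H5.3 and ZC434.8 made up most of the arginine kinase RNA of the worm. To compare genes, CPM were divided by the merged exon length in kilobases. In M05B5.5 day-1 libraries F46H5.3 stood at 565 ± 10.8 CPM per kb, ZC434.8 at 294 ± 5.88, W10C8.5 at 14 ± 0.0668 and argk-1 at 12.6 ± 0.840 (SD, n = 3). In L4440 day-1 libraries the levels were 490 ± 50.1 for F46H5.3, 408 ± 151 for ZC434.8, 56.9 ± 27.9 for argk-1 and 16.5 ± 2.66 CPM per kb for W10C8.5. The order of argk-1 and W10C8.5 thus differed between these groups, while F46H5.3 and ZC434.8 were the upper pair in all 18 libraries.

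**Figure D1:**
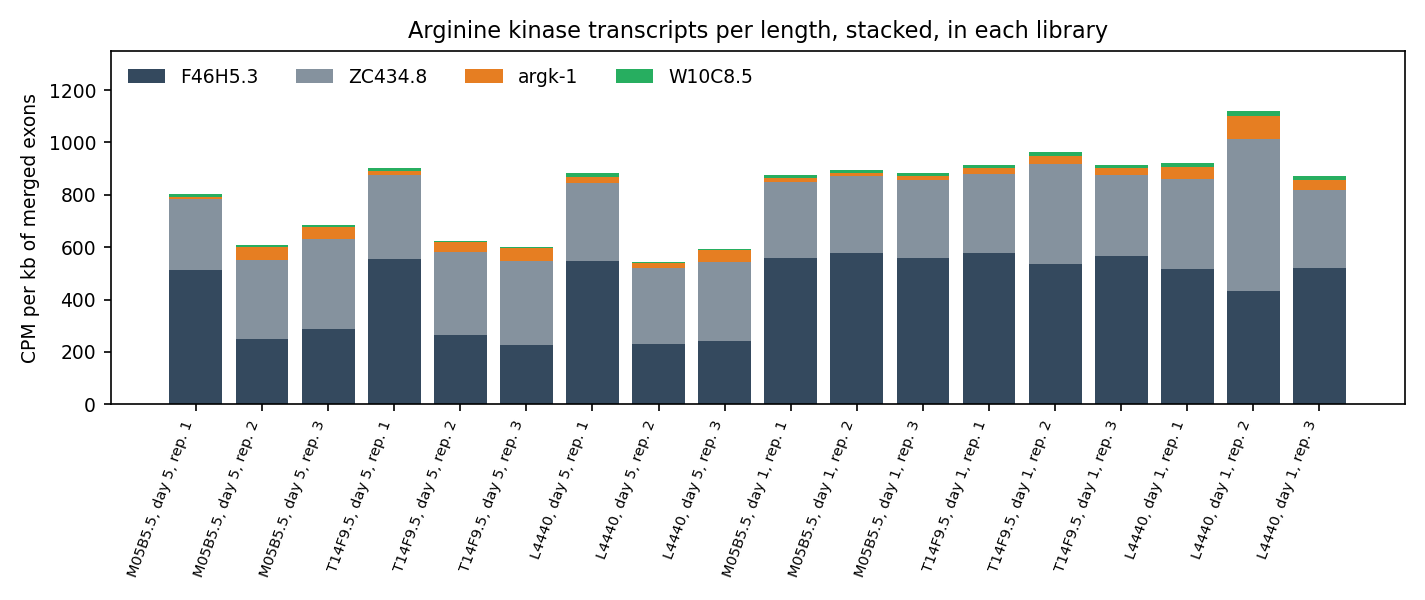
CPM per kb of merged exons (vertical axis) of 4 arginine kinase genes, stacked for each of the 18 libraries. F46H5.3 and ZC434.8 fill most of every bar, and the bars of day-5 replicates 2 and 3 reach 543 to 683 CPM per kb, against 803 to 903 in day-5 replicate 1 and 871 to 1120 at day 1.

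Summed over the family, the level per length was 543 to 683 CPM per kb in day-5 replicates 2 and 3, 803 to 903 in day-5 replicate 1 and 871 to 1120 in the 9 day-1 libraries. F46H5.3 took 37.7% to 42.5% of that sum in day-5 replicates 2 and 3, 61.4% to 63.8% in day-5 replicate 1 and 38.5% to 64.4% at day 1, where the lowest share was that of L4440 replicate 2. ZC434.8 took 49.8% to 53.6%, 33.8% to 35.6% and 32.6% to 51.8% in the same 3 sets of libraries. These shares depend on the gene lengths used. With the lengths implied by the deposited RPKM (counts scaled by length), the M05B5.5 day-1 mean of ZC434.8 was 237 CPM per kb instead of 294. That of F46H5.3 was 558 instead of 565. argk-1 took 0.886% to 8.58% over all libraries, and W10C8.5 took 0.616% to 1.75%. The composition of the family therefore varied between libraries of one group at day 5 as well as between ages.

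F32B5.1 was scarcely detected. It had 0 to 8 counts in a library and 32 counts in all, with none in 3 libraries. At these depths a count of 0 allows up to 0.0787 CPM in the T14F9.5 day-1 library at 0, and 0.0793 and 0.0814 CPM in the L4440 day-5 libraries at 0, which covers counting error only. No difference between groups could be detected at this depth.

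**Figure D2:**
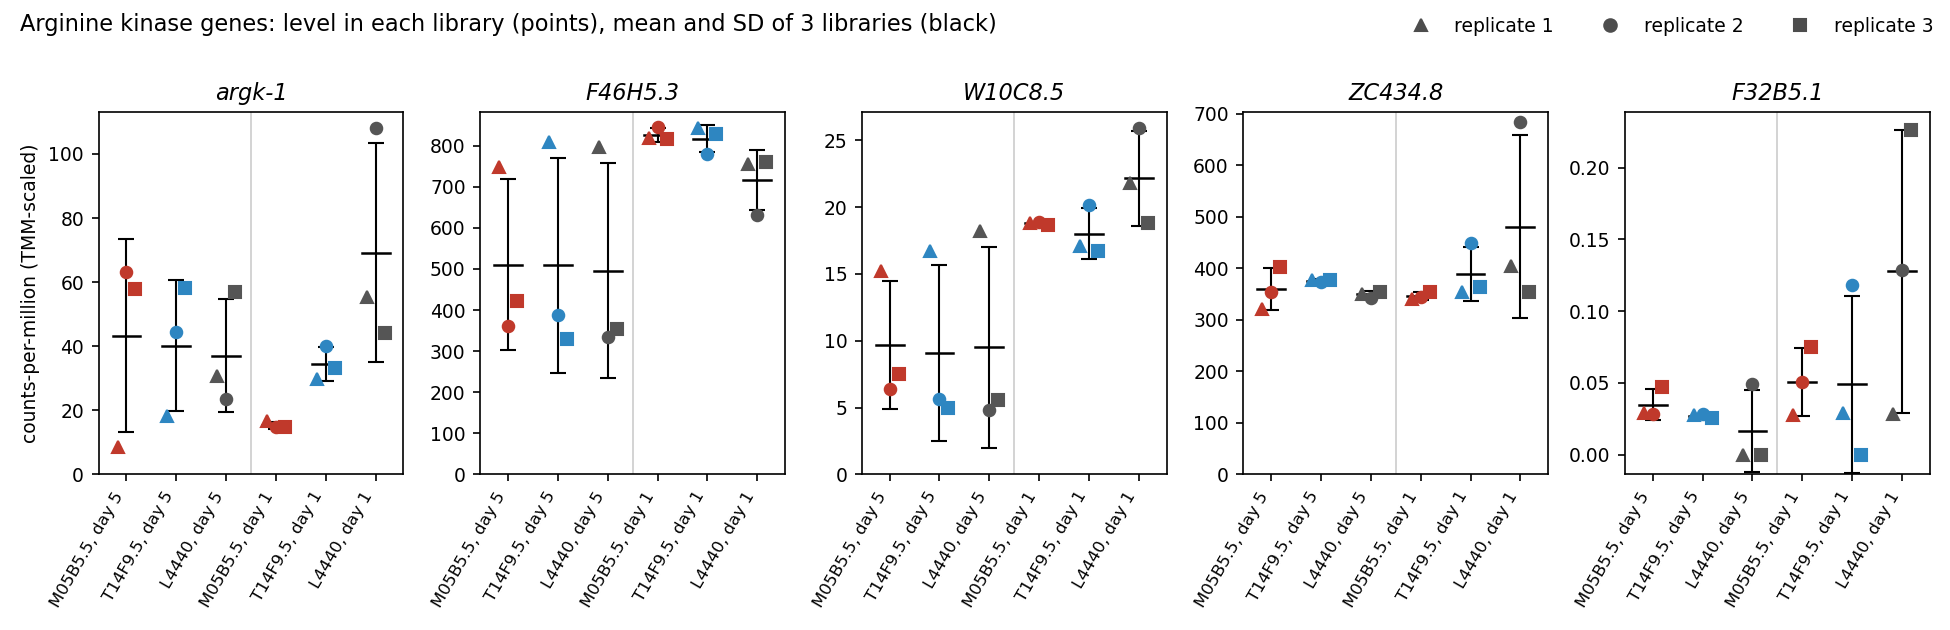
TMM-scaled CPM (vertical axis, a scale for each gene) of the 5 arginine kinase genes in the 6 groups. Points are libraries with a marker for each replicate, and black lines are the mean and SD of 3 libraries; F46H5.3 and W10C8.5 stay near the day-1 level in replicate 1 of each day-5 group and are lower in replicates 2 and 3.

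By group mean, argk-1 was lowest in the M05B5.5 libraries at day 1. With M05B5.5 its day-1 libraries had 16.5, 14.7 and 14.7 CPM, against 55.5, 108 and 44.1 CPM with L4440. All 3 M05B5.5 libraries were below every L4440 library, and L4440 replicate 2 was the highest of the 18. The log2 fold change was -2.17 ± 0.57 (SE), a level 4.51-fold lower, with an interval of 2 SE from -3.31 to -1.04. The edgeR quasi-likelihood test gave a Benjamini-Hochberg adjusted p of 0.0709, so argk-1 did not pass 0.05. edgeR called 0% of the 14735 genes in this comparison, although 4685 were below 0.05 before adjustment, and 0.0709 is the lowest adjusted p of the comparison, shared by tied genes. Of all tested genes, 20.3% were lower with no overlap of the libraries, as argk-1 was, and 0.122% had a log2 fold change at or below that of argk-1. DESeq2 put argk-1 at -2.15 with an adjusted p of 0.0105, in a test that called 17.7% of its genes. Without L4440 day-1 replicate 3 edgeR gave -2.39 (adjusted p = 0.0111), in a fit that called 5042 of 14966 genes. Without replicate 2 it gave -1.70 (adjusted p = 0.276), in a fit that called 1 of 14950. No sequencing lane held day-1 libraries of both M05B5.5 and L4440, and lane cannot be told apart from plasmid in this comparison.

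The other arginine kinases moved less in that comparison. ZC434.8 had 340, 344 and 354 CPM with M05B5.5 at day 1, against 405, 684 and 354 CPM with L4440. L4440 replicate 2 was far above the other 5 libraries and replicate 3 was level with the highest M05B5.5 library. The log2 fold change was -0.47 ± 0.19 (edgeR adjusted p = 0.111), -0.13 without L4440 replicate 2 (adjusted p = 0.604) and -0.63 without replicate 3 (adjusted p = 0.0123). The fit without replicate 3 called 5042 of 14966 genes. F46H5.3 stood at 818, 845 and 816 CPM against 756, 632 and 761 CPM, every M05B5.5 library above every L4440 library, at a log2 fold change of 0.21 ± 0.36 (adjusted p = 0.727). Of all genes 21.0% were higher with no overlap. W10C8.5 stood at 18.8, 18.9 and 18.7 CPM against 21.8, 25.9 and 18.8 CPM, at -0.23 ± 0.50 (adjusted p = 0.780), and its groups overlapped.

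The libraries labelled T14F9.5 lay between the other 2 plasmids in argk-1 at day 1. They had 29.8, 40.1 and 33.1 CPM of argk-1, below every L4440 day-1 library and above every M05B5.5 day-1 library. Against L4440 the log2 fold change was -1.01 ± 0.57 (edgeR adjusted p = 0.294), in a comparison where edgeR called 0% of genes, 3357 were below 0.05 before adjustment, and 8.35% were lower with no overlap. M05B5.5 against T14F9.5 gave -1.17 ± 0.57 (adjusted p = 1.00). In that comparison 4.55% of genes were lower with no overlap and 0.360% had a log2 fold change at or below that of argk-1. Both comparisons share libraries with the one above and do not add independent evidence to it. edgeR called 0.00679% of genes between M05B5.5 and T14F9.5 at day 1, which was hlh-2 alone. F46H5.3 had 844, 781 and 828 CPM with T14F9.5 at day 1, against 756, 632 and 761 CPM with L4440, higher with no overlap as were 8.56% of genes. None of the other 3 tested members passed in either comparison, with log2 fold changes from -0.30 to 0.19 against L4440 and from -0.17 to 0.06 against T14F9.5.

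At day 5 no difference of an arginine kinase between plasmids passed the test. argk-1 had 8.63, 63.1 and 58.0 CPM in M05B5.5, 18.1, 44.3 and 58.2 CPM in T14F9.5 and 30.7, 23.6 and 56.9 CPM in L4440 libraries. Replicate 1 was the lowest library of the M05B5.5 and T14F9.5 groups, and all 3 groups overlapped. The log2 fold changes against L4440 were 0.22 ± 0.57 for M05B5.5 and 0.12 ± 0.57 for T14F9.5, with intervals of 2 SE from -0.91 to 1.36 and from -1.02 to 1.25 (edgeR adjusted p = 1.00 for each). edgeR called 0% of genes in both comparisons, and 200 and 93 genes were below 0.05 before adjustment. Within lanes the direction for M05B5.5 was not the same: on the lane of M05B5.5 replicate 1 the value was 8.63 CPM against 30.7 and 23.6 CPM in L4440, and on that of M05B5.5 replicate 2 it was 63.1 against 56.9 CPM. With lane as a term the log2 fold change was -0.84 for M05B5.5 and -1.73 for T14F9.5 (adjusted p = 1.00 and 0.858). F46H5.3, W10C8.5 and ZC434.8 lay between -0.07 and 0.11 against L4440 in both plasmids, and argk-1 was at 0.10 ± 0.57 between M05B5.5 and T14F9.5 (edgeR adjusted p = 1.00), where edgeR called 0% of genes and 285 were below 0.05 before adjustment.

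**Figure D3:**
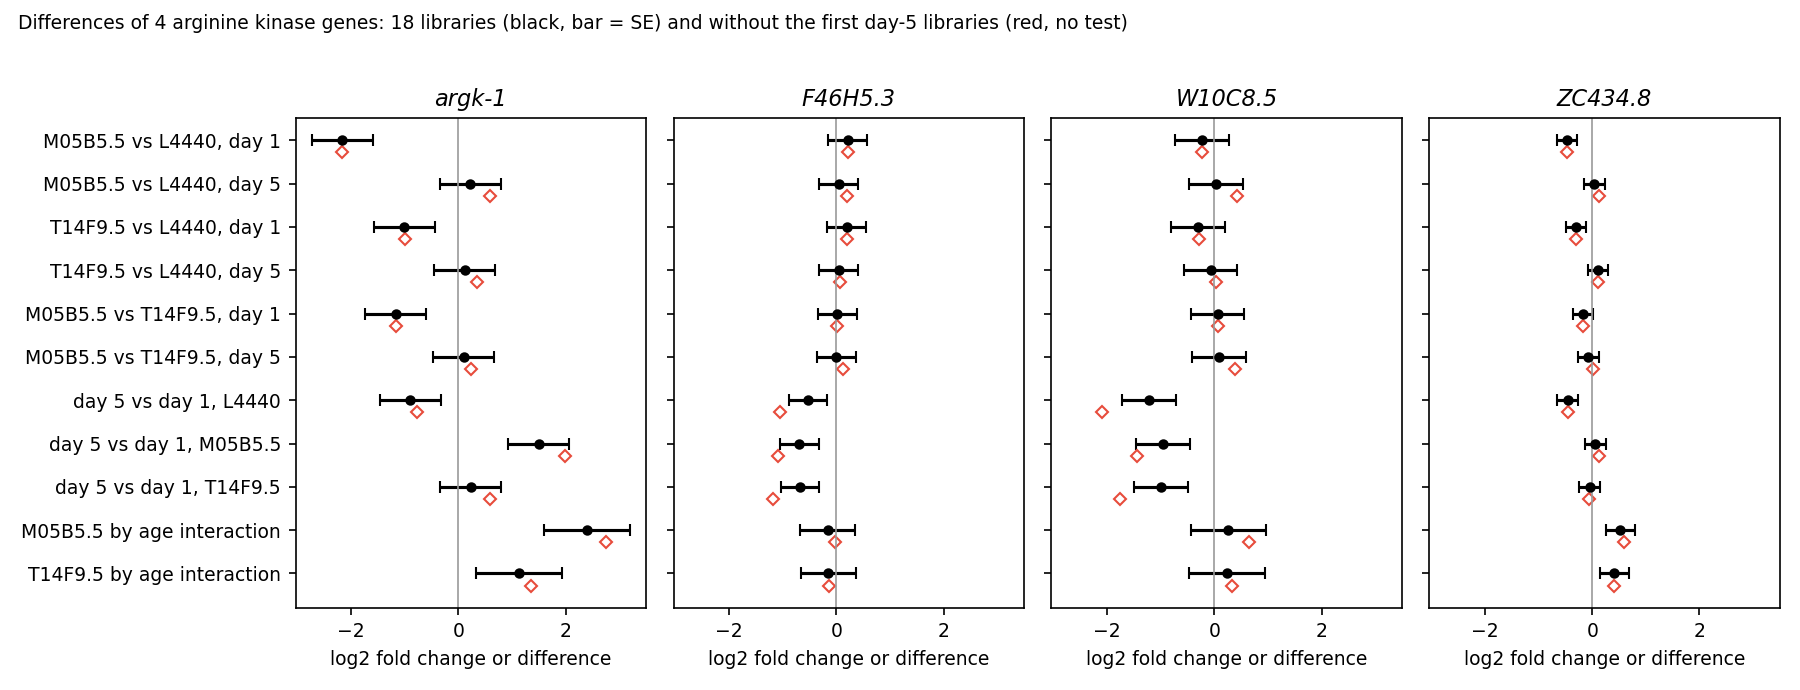
Log2 fold change or difference of log2 fold changes (horizontal axis) of the 4 tested arginine kinase genes in 11 comparisons. Black points with bars are the fit of all 18 libraries with its SE, none of which passed an adjusted p of 0.05; red diamonds leave out replicate 1 of each day-5 group, chosen for its likeness to day 1, and show values with no test, which lie further from 0 for W10C8.5 and F46H5.3 in the 3 comparisons of age.

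The age difference of argk-1 had opposite signs in M05B5.5 and L4440, and none passed the test. Day 5 against day 1 gave a log2 fold change of 1.5 ± 0.57 in M05B5.5 (edgeR adjusted p = 0.339), 0.23 ± 0.57 in T14F9.5 (adjusted p = 0.886) and -0.90 ± 0.57 in L4440 (adjusted p = 0.249). For age, edgeR called 0% of genes in M05B5.5 and in T14F9.5, where 1905 and 1496 were below 0.05 before adjustment, and 15.8% in L4440, argk-1 not among them. The difference between the age effects of M05B5.5 and L4440 was 2.4 ± 0.80 (edgeR adjusted p = 0.380), and that between T14F9.5 and L4440 was 1.13 ± 0.80 (adjusted p = 0.671). Neither passed, in tests where edgeR called 0% of genes and 1923 and 765 were below 0.05 before adjustment.

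Replicate 1 of each day-5 group was low in argk-1 beside day 1 of the same plasmid. It held 0.564 times the day-1 mean in M05B5.5, 0.528 times in T14F9.5 and 0.444 times in L4440. The other day-5 libraries averaged 60.5 CPM in M05B5.5, 51.3 CPM in T14F9.5 and 40.2 CPM in L4440, against day-1 means of 15.3, 34.3 and 69.1 CPM. Without replicate 1 of the 3 day-5 groups, the log2 fold change of argk-1 with age in M05B5.5 was 1.99 and the interaction was 2.76. These libraries were left out because they resemble day 1. Values without them are therefore given here as a description, with no test. With these libraries left out, edgeR called 20.4% of genes with age in M05B5.5, 17.9% in T14F9.5 and 30.1% in L4440.

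F46H5.3 and W10C8.5 stood well below their day-1 levels in 6 of the 9 day-5 libraries, replicates 2 and 3 of each plasmid. F46H5.3 had 749, 362 and 421 CPM in M05B5.5 day-5 libraries, 810, 387 and 330 CPM in T14F9.5 and 798, 335 and 354 CPM in L4440, against 632 to 845 CPM in the 9 day-1 libraries. Replicate 1 lay within the range of the 9 day-1 libraries in all 3 plasmids, and the other 6 day-5 libraries lay below that range. Beside its own plasmid, replicate 1 was below the M05B5.5 day-1 libraries (816 to 845 CPM) and above those of L4440 (632 to 761 CPM). In M05B5.5 all day-5 libraries were thus lower with no overlap, as were 16.0% of all genes. In the fit of all libraries the log2 fold change with age was -0.69 ± 0.36 in M05B5.5, -0.68 ± 0.36 in T14F9.5 and -0.53 ± 0.36 in L4440 (edgeR adjusted p = 0.415, 0.511 and 0.277). None passed. Without replicate 1 of each day-5 group, left out for its likeness to day 1, the values were -1.08, -1.19 and -1.05 in the same plasmids.

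W10C8.5 had 15.2, 6.40 and 7.49 CPM in M05B5.5 day-5 libraries, 16.7, 5.65 and 4.96 CPM in T14F9.5 and 18.2, 4.80 and 5.56 CPM in L4440. The day-1 libraries had 16.7 to 25.9 CPM. Every day-5 library lay below every day-1 library of its plasmid. Replicate 1 was only narrowly below in L4440 and in T14F9.5, in T14F9.5 by less than the digits given. In M05B5.5 it had 15.2 CPM against 18.7 to 18.9 CPM at day 1. The other 6 day-5 libraries were far below. Of all genes, 16.0% were lower with no overlap in M05B5.5, 9.26% in T14F9.5 and 16.5% in L4440. The log2 fold change with age was -0.96 ± 0.50 in M05B5.5, -0.99 ± 0.50 in T14F9.5 and -1.22 ± 0.50 in L4440 (edgeR adjusted p = 0.421, 0.507 and 0.0942). None passed. Without replicate 1 of each day-5 group the values were -1.44, -1.76 and -2.09, again as a description.

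ZC434.8 stayed nearly level. It had 321, 355 and 403 CPM in M05B5.5 day-5 libraries, 378, 373 and 378 CPM in T14F9.5 and 351, 343 and 355 CPM in L4440. Replicate 1 did not stand apart in this gene, and the day-5 range of 321 to 403 CPM lay over that of the M05B5.5 day-1 libraries. The log2 fold change with age was 0.06 ± 0.19 in M05B5.5 (interval of 2 SE -0.32 to 0.43), -0.05 ± 0.19 in T14F9.5 (-0.43 to 0.33) and -0.46 ± 0.19 in L4440 (edgeR adjusted p = 0.923, 0.930 and 0.0922). The L4440 value rests on day-1 replicate 2, at 684 CPM: without that library it was -0.11 (adjusted p = 0.524), and without day-1 replicate 3 it was -0.61 (adjusted p = 0.0129). The fit without replicate 3 called 5533 of 14966 genes with age in L4440.

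By mean over 3 libraries, the groups ran from L4440 day 1 to M05B5.5 day 1 in argk-1, at 69.1 down to 15.3 CPM. Neighbours in that order overlapped except T14F9.5 day 1 (34.3 CPM) and M05B5.5 day 1. F46H5.3 ran from 826 CPM in M05B5.5 day 1 to 496 CPM in L4440 day 5, with no overlap only between T14F9.5 day 1 (818 CPM) and L4440 day 1 (716 CPM). W10C8.5 ran from 22.1 CPM in L4440 day 1 to 9.09 CPM in T14F9.5 day 5, with no overlap only between T14F9.5 day 1 (18.0 CPM) and M05B5.5 day 5 (9.68 CPM). In ZC434.8, from 481 CPM in L4440 day 1 to 346 CPM in M05B5.5 day 1, all neighbours overlapped.

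F46H5.3 and W10C8.5 were low in the same libraries as genes of body wall muscle. The 9 listed body wall muscle markers, all tested, summed to 935 to 1270 CPM in day-5 replicates 2 and 3, 2880 to 3040 CPM in day-5 replicate 1 and 2310 to 3140 CPM at day 1. Of the 9, 5 were lower in all of day-5 replicates 2 and 3 than in every day-1 library, as were F46H5.3 and W10C8.5, and so were 12.6% of all tested genes. unc-54, the major body wall myosin heavy chain, had 199 to 276 CPM in day-5 replicates 2 and 3, 713 to 789 CPM in day-5 replicate 1 and 279 to 786 CPM at day 1. lev-11, tropomyosin, had 174 to 228, 415 to 489 and 465 to 523 CPM in the same sets.

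Set against the summed markers, F46H5.3 stood at 310 to 353 CPM per 1000 CPM of muscle marker in day-5 replicates 2 and 3, 254 to 281 in day-5 replicate 1 and 258 to 338 at day 1. The corresponding values of W10C8.5 were 4.50 to 6.06, 5.14 to 5.99 and 5.45 to 10.6. The median ratio of F46H5.3 was 337 in day-5 replicates 2 and 3, 262 in day-5 replicate 1 and 297 at day 1. That of W10C8.5 was 5.21, 5.78 and 6.84 in the same sets. In whole worms, fewer cells of a type and less RNA per cell cannot be told apart, and the part of muscle in the levels of these genes was not tested.

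**Figure D4:**
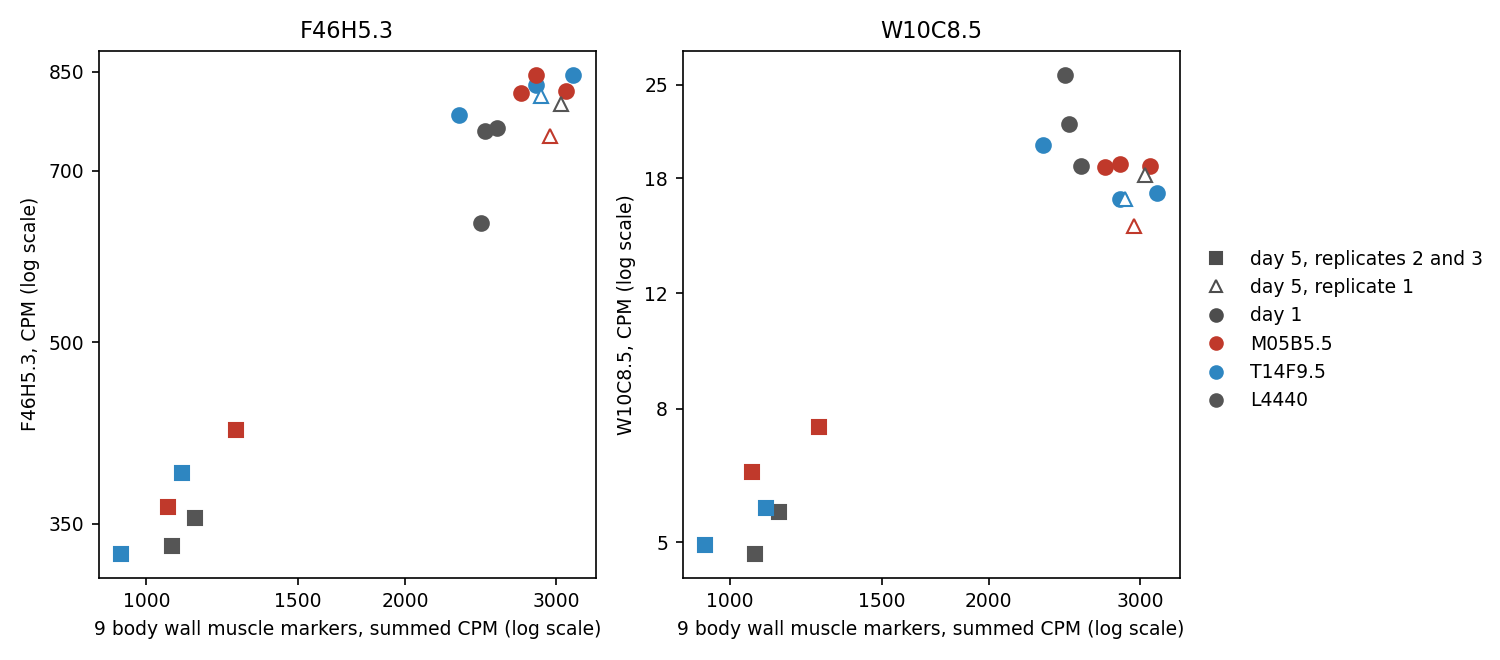
CPM of F46H5.3 (left) and W10C8.5 (right) against the summed CPM of 9 body wall muscle markers, a point per library, log scales. Day-5 replicates 2 and 3 lie together at 935 to 1270 CPM of muscle marker, and day-5 replicate 1 lies with the day-1 libraries at 2310 CPM or more.

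The summed markers of several other cell types were also low in day-5 replicates 2 and 3, though not every marker was. The 4 pharynx muscle markers summed to 46.7 to 59.1 CPM in day-5 replicates 2 and 3, 112 to 115 CPM in day-5 replicate 1 and 77.4 to 100 CPM at day 1. The 6 intestine markers summed to 171 to 257, 282 to 329 and 268 to 369 CPM in the same sets, and the 6 epidermis markers to 213 to 233, 277 to 363 and 391 to 547 CPM. Of the 4 pharynx muscle markers, 1 was lower in all of day-5 replicates 2 and 3 than in every day-1 library. So were 2 of the 6 intestine markers, 1 of the 6 epidermis markers and 12.6% of all tested genes. In the intestine and epidermis lists, 1 marker each was higher with no overlap. The 7 neuron markers summed to 259 to 283, 254 to 261 and 224 to 293 CPM, and the 9 germ line and oocyte markers to 5910 to 6960, 6880 to 7150 and 3800 to 6790 CPM, so these were not low there. The 6 glia markers, of which 5 passed the filter, summed to 6.75 to 8.82, 11.3 to 11.5 and 6.21 to 11.3 CPM. The 36 sperm markers, of which 24 passed the filter, summed to 3.13 to 10.4, 4.12 to 7.16 and 4.30 to 30.3 CPM. With M05B5.5 at day 1, where argk-1 was lowest, the glia markers summed to 10.5 to 11.3 CPM, against 6.21 to 10.2 CPM in L4440 of that age. The part of glia in the level of argk-1 was not tested.

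argk-1 varied together with cth-1 and F22B8.7, which lie close upstream of it on chromosome V, and with the distant gene clec-50. On the other side of argk-1 the nearest protein-coding gene, srxa-16 at 7039 bases, had 0 to 0.0857 CPM, too little to compare. Over the 18 libraries, the genes whose log2 CPM was most like that of argk-1, among 8304 protein-coding genes averaging 5 CPM or more, were F22B8.7 (Pearson r = 0.941), cth-1 (r = 0.913) and clec-50 (r = 0.876), a C-type lectin gene. These are descriptions over libraries that fall into clusters by age and share groups, with no test. After the group means were taken off, r was 0.925 for F22B8.7, 0.906 for cth-1 and 0.904 for clec-50. The rank correlation was highest for clec-50 among these, at 0.930, with 0.884 for F22B8.7 and 0.802 for cth-1. F22B8.7 (WBGene00009049), from 16094584 to 16097320, lies 3359 bases from cth-1 (WBGene00009048), which runs from 16100680 to 16102750. Both lie on the plus strand as argk-1 does, and argk-1 is 6573 bases from F22B8.7. clec-50 is 3646446 bases away on the same chromosome.

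cth-1 had 52.8, 51.6 and 46.4 CPM in M05B5.5, 88.6, 98.4 and 91.5 CPM in T14F9.5 and 111, 137 and 99.6 CPM in L4440 day-1 libraries. The order of the 3 plasmids, with no overlap between neighbours, was that of argk-1. Against L4440 the log2 fold change of cth-1 in M05B5.5 was -1.20 ± 0.27 (edgeR adjusted p = 0.0709) and that in T14F9.5 was -0.32 ± 0.27 (adjusted p = 0.478). In day-5 replicate 1 cth-1 held 0.772 (M05B5.5), 0.750 (T14F9.5) and 0.750 (L4440) times the day-1 mean of its plasmid, and F22B8.7 held 0.849, 0.787 and 0.735 times. The level of cth-1 over that of argk-1 was not constant, at 1.27 in L4440 day-1 replicate 2 and 4.50 in M05B5.5 day-5 replicate 1.

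**Figure D5:**
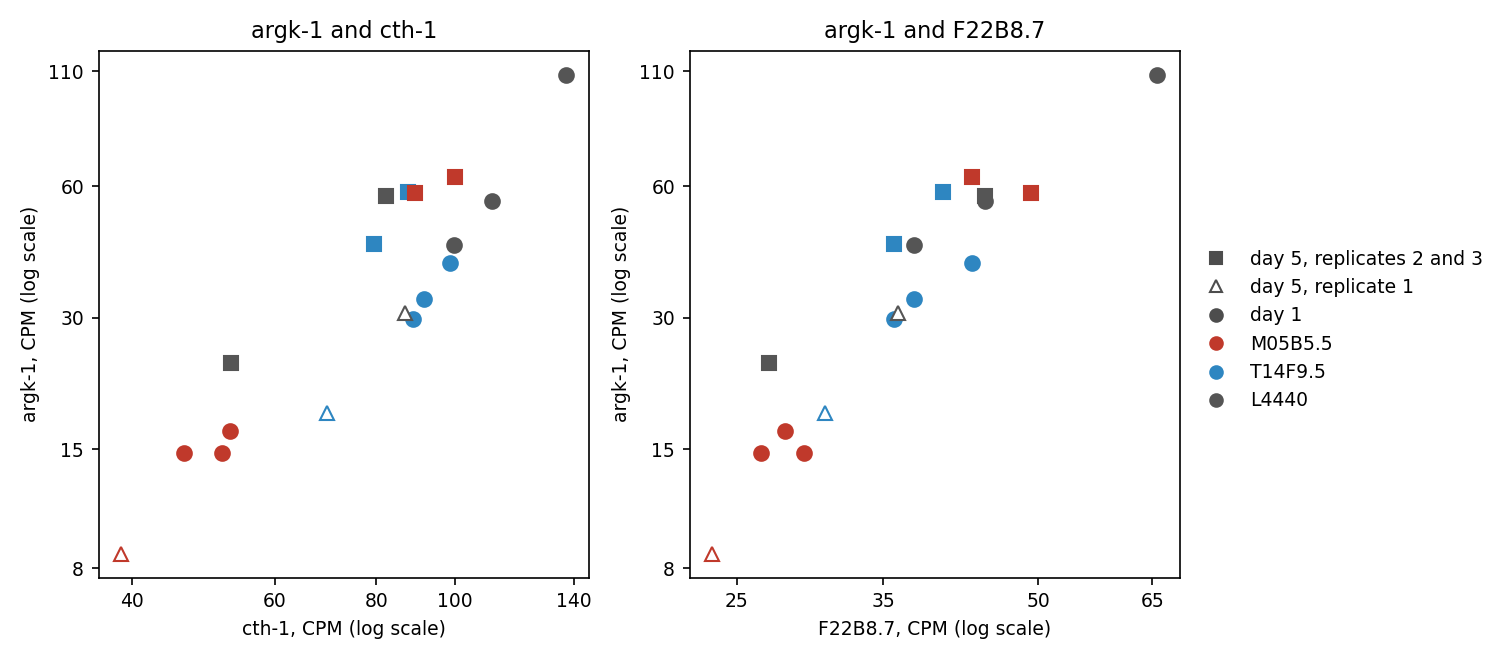
CPM of argk-1 against CPM of cth-1 (left) and F22B8.7 (right), a point per library, log scales. The M05B5.5 day-1 libraries and M05B5.5 day-5 replicate 1 lie at the low end of all 3 genes, and L4440 day-1 replicate 2 lies at the high end.

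The other members were each most like a different set of genes. F46H5.3 was most like F42G10.1 (r = 0.993), D2092.4 (r = 0.993) and dim-1 (r = 0.990), an immunoglobulin-domain protein of body wall muscle. W10C8.5 was most like tba-4 (r = 0.993), an alpha-tubulin, bca-1 (r = 0.992), a beta carbonic anhydrase, and Y51F10.7 (r = 0.991). ZC434.8 was most like tspo-1 (r = 0.977), cyn-7 (r = 0.972), a cyclophilin, and C27H6.8 (r = 0.971). For ZC434.8 the rank correlation was lower, at 0.796 with tspo-1, 0.804 with C27H6.8 and only 0.591 with cyn-7, which ranged from 1550 to 4770 CPM. L4440 day-1 replicate 2 was the highest library in ZC434.8 and in each of these genes.

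Of the protein-coding genes on either side of F46H5.3, the nearer, F46H5.7, did not share its pattern. The other, syd-9, lies 3875 bases away on the opposite strand. It averaged 7.3 CPM at day 1 and 2.57 CPM in day-5 replicates 2 and 3, with overlap. The log2 fold change of syd-9 with age was -1.82 ± 0.57 in M05B5.5, lower with no overlap. With overlap, it was -0.89 ± 0.56 in T14F9.5 and -0.6 ± 0.56 in L4440 (edgeR adjusted p = 0.303, 0.555 and 0.435). None passed. F46H5.7, 3 bases from F46H5.3, was higher at day 5 in L4440 at 76.8 ± 3.88 against 54.1 ± 7.80 CPM at day 1 (SD, n = 3 each), a log2 fold change of 0.50 ± 0.14 (edgeR adjusted p = 0.0364), where F46H5.3 was at -0.53. That call and those of age in L4440 given next rest on single libraries: without L4440 day-1 replicate 1 or 2, or L4440 day-5 replicate 2 or 3, edgeR called 0 genes with age in L4440, with 3731 to 4808 below 0.05 before adjustment.

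The signalling genes linked to argk-1 in the worm showed no called difference between plasmids. Of 13 listed genes of AMPK, the energy-sensing kinase, and S6 kinase, all tested, 0 were called by edgeR in the comparisons between plasmids. Their median log2 fold change at day 1 was 0.68 in M05B5.5 and 0.51 in T14F9.5 against L4440, with -0.03 over all tested genes in each. Both medians rest on the same L4440 libraries. Between M05B5.5 and T14F9.5 at day 1 the median was 0.08. rsks-1, the S6 kinase, had 192, 199 and 193 CPM with M05B5.5 at day 1, against 50.1, 3.69 and 156 CPM in L4440 day-1 libraries. The M05B5.5 libraries were even and the L4440 libraries were not, with L4440 replicate 2 the lowest, and the log2 fold change was 1.48 ± 0.69 (adjusted p = 0.164). All 9 day-5 libraries had 168 to 210 CPM of rsks-1. With age in L4440, where edgeR called 15.8% of all tested genes, 2 of the 13 rose and 0 fell, a share near that background. The 2 were crtc-1, a CREB coactivator regulated by AMPK, by 1.59 ± 0.37 (adjusted p = 0.0355) and aak-1, a catalytic AMPK subunit, by 0.72 ± 0.19 (adjusted p = 0.0361).

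Genes of arginine, ornithine and proline metabolism gave no call in the comparisons of plasmid, age or their interaction. All 11 listed were tested, and their median log2 fold change lay between -0.38 and 0.12. rars-1, the arginyl-tRNA synthetase and the most abundant of them, had 256 ± 8.63 CPM in M05B5.5 and 203 ± 15.3 CPM in L4440 at day 1 (SD, n = 3 each), a log2 fold change of 0.33 ± 0.11 (edgeR adjusted p = 0.0770). Among 6 other genes of high-energy phosphate transfer, 1 was called, for age in L4440, where 15.8% of all tested genes were. ndk-1, a nucleoside diphosphate kinase, fell with age in L4440 to 1490 ± 159 CPM at day 5, against 2990 ± 1650 CPM at day 1, by a log2 fold change of 1.00 (adjusted p = 0.0365), and L4440 day-1 replicate 2 was the highest of the libraries in it.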

How the data were processed

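Libraries of total RNA were prepared with version 2 of the TruSeq RNA kit, per the labels' protocols. The submitters' processing notes name bcl2fastq 1.8.4, STAR 2.4.1d, featureCounts 1.4.6-p4 and the WBcel235 assembly. Strand setting, multimapping and annotation release are not given in the sources used here. The deposited count table holds raw counts per gene. The deposited RPKM table holds counts scaled by length and a library total, but the divisor of 94.4% of its values was some other library's total (gene lengths then agree within 0.00424% over 3514 genes with 20 RPKM or more). It was used only for gene lengths.

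Groups follow the plasmid and age labels, and replicate numbers follow accession order. edgeR 4.0.16 (R 4.3.3) was run on the counts of all 18 libraries with a term per group: filterByExpr at a minimum count of 10, TMM, robust quasi-likelihood tests (12 residual df), and Benjamini-Hochberg adjustment at 0.05 within each of 11 comparisons. SE come from the fit's information matrix and its moderated dispersion. Levels are TMM-scaled CPM computed here, with exon lengths from the Ensembl annotation, and likeness used log2 CPM with a prior count of 2. The fit was tested on simulated data. Alternatives were DESeq2 1.42.0, RLE factors, other filters (none, or 50 as minimum count), a fit of only the groups compared, a lane term, a gene length offset (spline with 4 degrees of freedom), and leaving out libraries. Named genes are the members, the genes the plasmids name, adjacent genes, the 3 genes most like each member, and from each pathway list up to 4 called genes or the most abundant one. The members, lists, markers and alternatives were chosen with earlier results of these data known. Python 3.11.15 and matplotlib 3.10.9 drew the figures.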

Additional observations from a re-analysis of the deposited data

How the results depend on the processing

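Of the 44 log2 fold changes of tested members, 360 values under alternatives other than leaving out 1 library held 336 with the same sign and side of the threshold, 8 that newly passed and 16 that changed sign; leaving out 1 library gave 312 values, of which 261 held, 6 newly passed and 45 changed sign. All 44 had missed the threshold with all libraries, those that changed sign as well as those that held. The cause of the changes was not tested. No paired analysis was possible because the labels give the groups no shared replicate numbers.

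The count of members called was 0 in all 11 comparisons. It was 1 with DESeq2 for M05B5.5 against L4440 at day 1 (argk-1), where DESeq2 called 17.7% of its genes. Leaving out 1 library gave 0 to 2 there. The 2 came without L4440 day-1 replicate 3, in a fit that called 5042 of 14966 genes. For age, leaving out replicate 1 of each day-5 group gave 3 in M05B5.5, 2 in T14F9.5 and 2 in L4440, where 20.4%, 17.9% and 30.1% of all genes were called. Those libraries were chosen for their likeness to day 1, so these counts are no independent test of age. Leaving out 1 library gave 0 to 2 in L4440 and 0 to 1 in M05B5.5. Over all genes those fits called from 0 to 5533 of 14966 in L4440 and from 0 to 733 of 14996 in M05B5.5. Over all genes, edgeR called 2332 with age in L4440 with all libraries, 0 with the compared groups alone, with the length offset or without the pair of libraries that share an index and lane, 715 with no filter and 3807 by DESeq2. For M05B5.5 against L4440 at day 1 it called 0, and 5042 without L4440 day-1 replicate 3.

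With lane as a term, these log2 fold changes changed sign at day 5: M05B5.5 against L4440 in argk-1 (-0.84) and ZC434.8 (-0.06), T14F9.5 against L4440 in argk-1 (-1.73), W10C8.5 (0.89) and ZC434.8 (-0.16), and M05B5.5 against T14F9.5 in F46H5.3 (-0.51), W10C8.5 (-0.58) and ZC434.8 (0.10). So did the interaction of T14F9.5 and age in argk-1 (-0.80) and F46H5.3 (0.58). The lane term could not be fitted for M05B5.5 against L4440 or T14F9.5 at day 1, age in L4440 or T14F9.5, or the interaction of M05B5.5 and age. Without replicate 1 of each day-5 group, W10C8.5 was at 0.03 for T14F9.5 against L4440 and ZC434.8 at 0.02 for M05B5.5 against T14F9.5 at day 5. With the length offset, F46H5.3 was at -0.01 for M05B5.5 against T14F9.5 at day 1 and ZC434.8 at 0.03 for age in T14F9.5. Without the pair sharing an index and lane these were -0.02 and 0.07.

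Leaving out each library in turn changed the sign of 20 of the 44. At day 5, M05B5.5 against L4440 ranged from -0.14 to 0.71 in argk-1, -0.34 to 0.57 in F46H5.3, -0.45 to 0.90 in W10C8.5 and -0.04 to 0.12 in ZC434.8. T14F9.5 against L4440 ranged from -0.25 to 0.57 in argk-1, -0.47 to 0.56 in F46H5.3 and -0.84 to 0.81 in W10C8.5. M05B5.5 against T14F9.5 ranged from -0.26 to 0.59 in argk-1, -0.38 to 0.51 in F46H5.3, -0.39 to 0.87 in W10C8.5 and -0.15 to 0.01 in ZC434.8. At day 1, T14F9.5 against L4440 ranged from -0.47 to 0.03 in ZC434.8, and M05B5.5 against T14F9.5 from -0.02 to 0.04 in F46H5.3. Age ranged from -0.02 to 0.13 in ZC434.8 with M05B5.5, and with T14F9.5 from -0.13 to 0.58 in argk-1 and -0.12 to 0.07 in ZC434.8. The interaction with age ranged from -0.55 to 0.36 in F46H5.3 and -0.22 to 1.13 in W10C8.5 for M05B5.5, and from -0.66 to 0.37 in F46H5.3 and -0.55 to 1.1 in W10C8.5 for T14F9.5. With 2 libraries left in a group, the fit assumes that they vary as the other groups do.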
